A study of Mus musculus with 2 samples.

Results

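The uninjured microglia described here are the cells of 1 single-cell RNA sequencing library in which the chemokine gene Ccl4 supplied at least 0.2% of a cell's transcripts while Apoe supplied less than 1%. Of 695 uninjured cells kept after filtering, 231 met this rule (33.2%, 95% interval 29.7 to 36.9), out of 1272 cells kept in the whole series. They are called Ccl4-rich cells and were set against the other 464 uninjured cells. Because Ccl4 itself chose the cells, its level is a description. Ccl4 was left out of the totals behind levels and ratios and out of the counts of higher and lower genes. UMI and gene numbers per cell, summed UMIs, shares of UMIs and thinned cells keep Ccl4.

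Both libraries of the series came from spinal cords of Cx3cr1-CreER::Rosa26-tdTomato mice (C57BL/6J). In this line an inducible Cre recombinase under the Cx3cr1 promoter, active in microglia and in other tissue macrophages, switches on a red fluorescent protein for good once the drug is given. All animals had 2 injections of 4-hydroxytamoxifen (1 mg each) in postnatal week 4, and 4 weeks after that the cords were dissociated with collagenase-4 (2 mg/ml, 1 h, 37 °C) and tdTomato-positive cells were sorted through scatter gates against debris and doublets. One library was made 5 days after lysolecithin, a membrane-dissolving lipid that removes myelin, had been injected, and the other from uninjured cord of matched age. How many animals were pooled, and of which sex, is not stated in the labels, and with 1 library per group no difference below has a replicate check. No p-value was therefore computed. All intervals are exact 95% counting intervals (Clopper-Pearson for shares and ratios, Poisson for levels) and cover counting error only.

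Ccl4 and Ccl3 encode the secreted chemokines MIP-1beta and MIP-1alpha, small proteins that attract leukocytes through G-protein-coupled receptors. In macrophages and microglia both genes are transcribed within minutes to hours after pattern-recognition receptors, cytokines or tissue damage activate the transcription factors NF-kappaB and AP-1. The same signals switch on Tnf and Il1a together with inhibitors such as Nfkbia and Tnfaip3, which restrain the response. Resting microglia are known instead for surface receptors such as P2ry12, Tmem119, Cx3cr1 and Csf1r.

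The Ccl4-rich cells had a median of 3187 unique molecular identifiers (UMIs, each 1 captured transcript) and 1318 genes per cell, against 2956 UMIs and 1258 genes in the other uninjured cells. Mitochondrial genes took a median of 1.66% of UMIs in Ccl4-rich cells and 1.96% in the others. In all, 732597 UMIs were counted in Ccl4-rich cells and 1360487 in the others. When the 695 cells were split into 4 groups of nearly equal size by depth, Ccl4-rich cells made up 24.1% of the shallowest group, then 34.5%, 37.6% and 36.8% of the deeper ones. In the shallowest group 2 UMIs were enough to pass the rule, and in the deepest 8 were the fewest that did. None of the Ccl4-rich cells had over 3 times the library's median UMI count, and 0 barcodes were shared between the libraries.

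Microglial identity was checked on 10 marker genes, including P2ry12, Tmem119 and Sall1. All 10 were seen in both sets, and together they reached 23642 CPM (UMIs of a gene or list per 1000000 UMIs) in Ccl4-rich cells and 23971 CPM in the others. P2ry12 had a UMI in 100% of Ccl4-rich cells and in 96.3% of the others. The 8 markers of border macrophages summed to 2 UMIs in Ccl4-rich cells and 144 in the others, and 7 of the 8, among them Mrc1, Pf4, Lyve1 and Cd163, were at 0 in Ccl4-rich cells. Of the other cells 9 had 3 or more UMIs of these markers, and just 2 of those had Apoe below 1%. Most thus had Apoe at 1% or more, which the rule shuts out whatever the Ccl4 share. The low sum in Ccl4-rich cells is therefore partly set by the rule. Endothelial markers summed to 29 UMIs in Ccl4-rich cells and 237 in the others, with Cldn5 and Flt1 at 0 in Ccl4-rich cells. Markers of neutrophils, T and NK cells and red blood cells were all at 0 UMIs in Ccl4-rich cells, against 0, 0 and 3 in the others. Monocyte markers summed to 2 UMIs against 21 and dendritic cell markers to 1 against 3, while B cell markers summed to 13 against 40, nearly all from Cd79b. Oligodendrocyte transcripts, chiefly myelin genes, stood at 209 CPM in Ccl4-rich cells and 234 CPM in the others, astrocyte transcripts at 86.6 against 78.7 CPM and fibroblast transcripts at 45.4 against 40.5 CPM. Of the Schwann cell list only Pmp22 was seen, at 426 against 411 CPM. The pericyte, neuron and oligodendrocyte precursor lists summed to 4, 4 and 2 UMIs in Ccl4-rich cells and 3, 17 and 0 in the others.

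Among the Ccl4-rich cells the Ccl4 count ran from 2 UMIs through a median of 15 to 193, and the Ccl4 share of a cell's UMIs from 0.2003% through a median of 0.523% to 4.53%. The other uninjured cells had a median of 1 Ccl4 UMI and a maximum of 57, in an Apoe-rich cell. Ccl4-rich cells held 83.8% of the library's 6595 Ccl4 UMIs and 35.0% of all its UMIs. No gap separated the groups at the threshold. The 5 cells just inside had Ccl4 shares of 0.2003, 0.202, 0.203, 0.206 and 0.208%, and the 5 nearest outside had 0.199, 0.198, 0.197, 0.193 and 0.187%. The 53 cells with Apoe at 1% or more were kept out by the second part of the rule, and 17 of them (32.1%, 19.9 to 46.3) also had Ccl4 at 0.2% or more. Free RNA in the droplets could not be measured well, since just 4 barcodes carried 5 or more endothelial UMIs. At a median depth of 1737 UMIs, 2 of these 4 barcodes had Ccl4, with 4 UMIs in all, and 2 had Ccl3, with 2 UMIs in all.

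**Figure D1:**
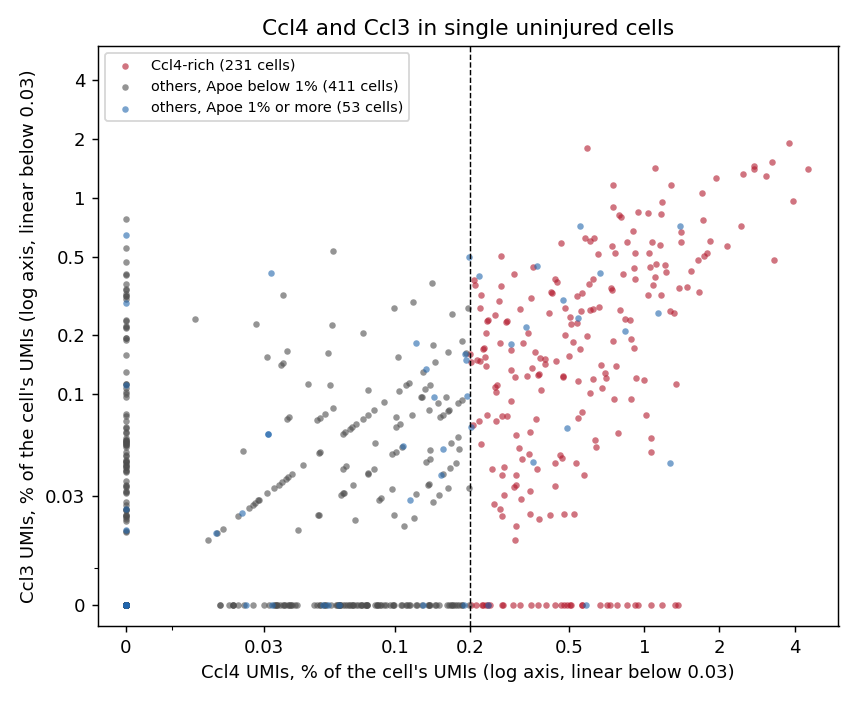
Each point is 1 uninjured cell, placed by the percentage of its UMIs from Ccl4 (horizontal) and from Ccl3 (vertical), on log axes that turn linear below 0.03% so that 0 can be shown. Red points are the 231 Ccl4-rich cells, grey points the 411 others with Apoe below 1%, blue points the 53 cells with Apoe at 1% or more, and the dashed line is the 0.2% threshold. Points form 1 cloud across the line, and 33 Ccl4-rich cells lie on the lower edge with 0 Ccl3 UMIs.

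The marks named for these cells were 4 genes, Ccl4 and 3 more, and the 3 did not differ alike. Ccl3 (ENSMUSG00000000982, GRCm38 chromosome 11, 83647844 to 83649355, minus strand) lies 13228 bases from Ccl4 (ENSMUSG00000018930, 83662584 to 83664683, plus strand). Ccl3 had between 0 and 97 UMIs per Ccl4-rich cell with a median of 5, against 0 to 33 with a median of 1 in the other cells. The 2 ranges overlapped, although the typical Ccl4-rich cell held several Ccl3 transcripts and the typical other cell 1. Summed, Ccl3 stood at 3059 CPM in Ccl4-rich cells and 657 CPM in the others, 4.66-fold higher (log2 ratio 2.22, 2.11 to 2.33). Without the 10 cells richest in Ccl3, all of them Ccl4-rich, the log2 ratio was 1.85. After every cell was thinned to 1500 UMIs, which left 207 Ccl4-rich and 397 other cells, Ccl3 was seen in 79.2% (73.1 to 84.5) of Ccl4-rich cells and in 38.3% (33.5 to 43.3) of the others, and unthinned in 85.7% and 50.9%.

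The pairing of the 2 chemokines was not complete. Of the 231 Ccl4-rich cells, 33 had no Ccl3 UMI (14.3%, 10.0 to 19.5) and 16 had more Ccl3 than Ccl4 UMIs. Ccl3 itself reached 0.2% of UMIs in 102 Ccl4-rich cells (44.2%, 37.6 to 50.8) and in 42 of the other 464 cells (9.05%, 6.602 to 12.04).

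Hbegf, which encodes a membrane-anchored growth factor of the EGF family, stood at 375 CPM in Ccl4-rich cells and 298 CPM in the others (log2 0.33, 0.11 to 0.56). It was seen in 24.6% (18.9 to 31.1) of thinned Ccl4-rich cells against 27.7% (23.4 to 32.4) of the others, shares whose intervals overlap. Gadd45g, a stress-response gene of the GADD45 family (ENSMUSG00000021453, chromosome 13, 51846678 to 51848468), went against its use as a mark of these cells. It ran from 0 to 18 UMIs in Ccl4-rich cells and from 0 to 23 in the others, with a median of 2 in both. In sum it was lower in Ccl4-rich cells, at 835 CPM against 1061 CPM (log2 −0.35, −0.49 to −0.21). The log2 ratio was −0.45 against other cells with Apoe below 1%. The cells are therefore called by Ccl4 and Ccl3 and not by Hbegf or Gadd45g.

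Across all 4433 genes with at least 50 UMIs, 137 were at least 1.5-fold higher in Ccl4-rich cells (3.09%) and 179 at least 1.5-fold lower (4.04%), and the median log2 ratio was 0.0018. At 2-fold the counts were 16 (0.361%) and 39 (0.88%). The counting interval lay above 0 for 217 genes (4.9%) and below 0 for 161 (3.63%). The cells were picked by a gene of the same profiles, so these shares describe the contrast and carry no test.

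Ranked by the interval bound nearest 0, the genes highest in Ccl4-rich cells were led by secreted signals. After Ccl3 came Cxcl10, a chemokine that attracts T cells through CXCR3 (chromosome 5, 92346638 to 92348889, minus strand), at 171 CPM in Ccl4-rich cells and 62.5 CPM in the others (log2 1.45, 1.04 to 1.86). Cxcl10 was seen in few cells, in 15.2% of Ccl4-rich cells and 10.8% of the others. Its 10 richest cells held 38.3% of its UMIs, and without them the log2 ratio was 0.83. Ccl12, a ligand of CCR2 in the mouse (chromosome 11, 82101845 to 82103400), ran from 0 to 30 UMIs with a median of 1 in Ccl4-rich cells and from 0 to 23 with a median of 0 in the others. Its level was 681 CPM against 376 CPM (log2 0.86, 0.68 to 1.04), and the log2 ratio was 0.57 without its 10 richest cells. Il1a, an alarm cytokine of the interleukin-1 family (chromosome 2, 129299610 to 129309972), stood at 571 CPM in Ccl4-rich cells and 339 CPM in the others (log2 0.75, 0.56 to 0.95). Of its 10 richest cells, 9 were Ccl4-rich, and without these 10 the log2 ratio was 0.50. Tnf, which encodes the cytokine TNF (chromosome 17, 35199381 to 35202007), stood at 586 CPM against 368 CPM (log2 0.67, 0.48 to 0.86). Without its 10 richest cells Tnf was at 0.59. All of these genes had overlapping ranges per cell in the 2 sets.

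The sequences before 3 of these genes, Ccl3, Cxcl10 and Il1a, known to respond to NF-kappaB and AP-1, are shown. Each is the 250 bases upstream of the RefSeq start in GRCm38.p6, written 5′ to 3′ on the gene's own strand, with matches to GGGNNNTTCC (kappaB) and TGANTCA (AP-1) on either strand in capitals. The AP-1 letters read the same on both strands, and no matches overlap in these windows.
Ccl3, chr11:83649379-83649628, minus strand: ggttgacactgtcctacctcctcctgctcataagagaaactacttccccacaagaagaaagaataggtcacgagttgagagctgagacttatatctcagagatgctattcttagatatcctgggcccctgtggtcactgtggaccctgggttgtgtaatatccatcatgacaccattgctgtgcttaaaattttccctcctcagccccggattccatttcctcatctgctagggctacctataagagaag
Cxcl10, chr5:92348890-92349139, minus strand: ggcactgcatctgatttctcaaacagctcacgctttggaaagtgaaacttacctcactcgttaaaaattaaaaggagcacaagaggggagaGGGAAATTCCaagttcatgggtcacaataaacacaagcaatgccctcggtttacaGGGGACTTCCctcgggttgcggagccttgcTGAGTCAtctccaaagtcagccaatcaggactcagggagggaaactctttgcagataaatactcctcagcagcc
Il1a, chr2:129309973-129310222, minus strand: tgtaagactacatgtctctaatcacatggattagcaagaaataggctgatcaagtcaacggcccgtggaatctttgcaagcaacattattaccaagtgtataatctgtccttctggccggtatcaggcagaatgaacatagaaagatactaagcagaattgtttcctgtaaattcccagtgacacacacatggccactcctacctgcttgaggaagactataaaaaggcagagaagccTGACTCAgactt
The Cxcl10 window held 2 kappaB matches that begin 159 and 104 bases before the start and 1 AP-1 match at 74 bases. Il1a had 1 AP-1 match, 12 bases before its start. Neither the kappaB nor the AP-1 letters were in the Ccl3 window. They were also absent from the windows of Ccl12 and Tnf, which were likewise among the 16 highest and are not printed. Of the 16 highest genes, 12 had an entry, 2 of which held the kappaB letters (Cxcl10 and Tgif1) and 3 the AP-1 letters (Cxcl10, Il1a and Rcan1). Over all 32851 promoters of the same length 4.65% held the kappaB letters and 6.75% the AP-1 letters. A match is a description of the letters and not a bound site.

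The remaining highest genes were receptors, signalling proteins and transcription factors. Cd83, a surface protein of activated antigen-presenting cells (ENSMUSG00000015396, chromosome 13, 43784775 to 43803132), ran from 0 to 35 UMIs with a median of 3 in Ccl4-rich cells and from 0 to 29 with a median of 1 in the others. It stood at 1210 CPM against 666 CPM (log2 0.86, 0.73 to 1.00), and at 0.79 without its 10 richest cells. In thinned cells Cd83 was seen in 67.1% (60.3 to 73.5) of Ccl4-rich cells and 47.6% (42.6 to 52.7) of the others. Junb, a subunit of AP-1, was the most abundant of the 16, at 6602 CPM against 4942 CPM (log2 0.42, 0.36 to 0.47), with 1 to 76 UMIs and a median of 18 in Ccl4-rich cells and 0 to 59 with a median of 13 in the others. No Ccl4-rich cell was without a Junb UMI.

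Gem, a small GTPase of activated cells, was spread over many cells and stood at 364 CPM in Ccl4-rich cells and 217 CPM in the others (log2 0.75, 0.50 to 0.99). Ccrl2, an atypical receptor that binds chemerin, stood at 340 CPM against 204 CPM (log2 0.73), and Tgif1, a transcriptional repressor in TGF-beta signalling, at 520 CPM against 349 CPM (log2 0.58). The G-protein regulator Rgs1 (379.6 CPM against 189.8 CPM, log2 1.00), the niacin receptor Hcar2 (275 CPM against 154 CPM, log2 0.83) and the calcineurin regulator Rcan1 (99.0 CPM against 53.0 CPM, log2 0.90) rested on few cells. Without the 10 richest cells of each gene their log2 ratios were 0.42, 0.31 and −0.07. Tnfrsf12a, the receptor of the cytokine TWEAK (log2 1.38, 0.64 to 2.14), Tcf7l2, a transcription factor of Wnt signalling (0.96, 0.36 to 1.56), and Tssc4 (1.07, 0.53 to 1.62) had few UMIs, 39 against 28, 50 against 48 and 63 against 56, and wide intervals. Without its 10 richest cells Tnfrsf12a was at 0.76. Overlapping annotation on the opposite strand lies at Cxcl10 (Art3), Il1a (Gm14023), Junb (Prdx2), Rcan1 (Gm46555) and Tssc4 (Trpm5). Whether the counting used strand is not given in the sources used here.

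**Figure D2:**
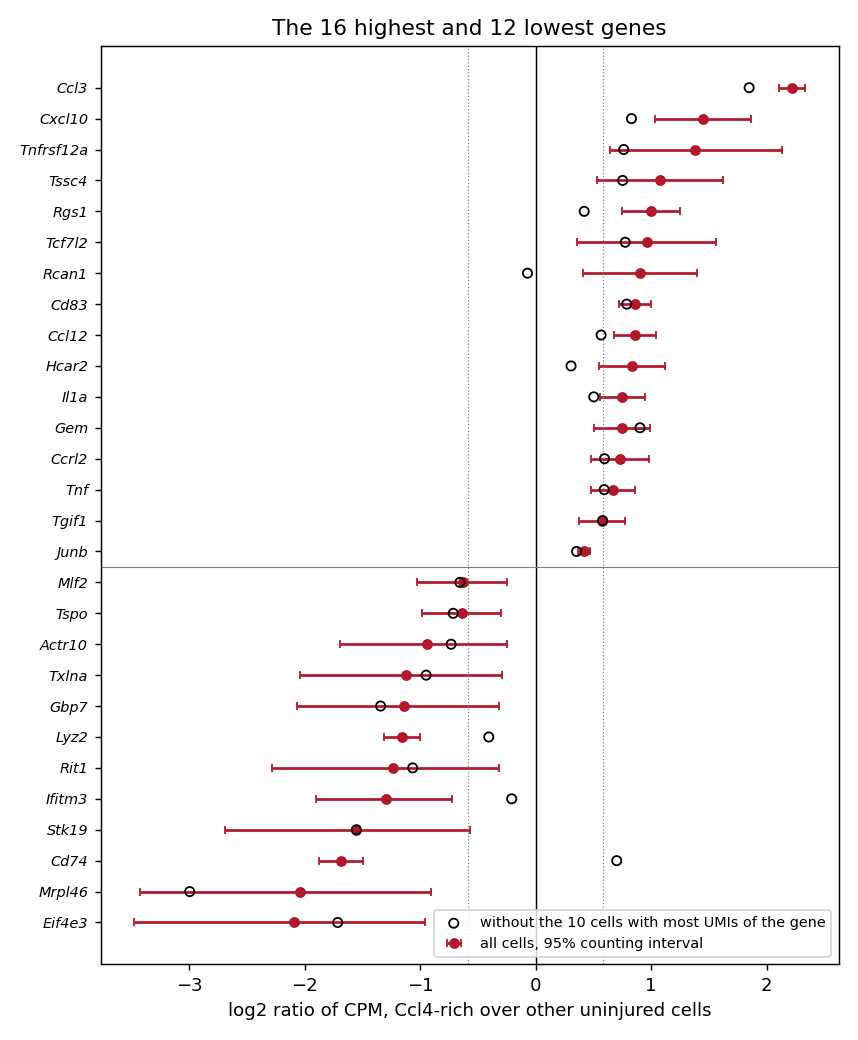
Log2 ratio of CPM, Ccl4-rich over other uninjured cells, for the 16 highest and 12 lowest genes, separated by the grey line. Filled points are all cells with their 95% counting interval, open circles leave out the 10 cells with most UMIs of that gene, and dotted lines mark 1.5-fold. Ccl3 stands apart at 2.22, while Rcan1 and Cd74 have open circles on the other side of 0.

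As a group, chemokines and cytokines stood higher. Of 26 listed genes 18 were measured, with a median log2 ratio of 0.45 against 0.0018 over all genes. Among them 7 were at least 1.5-fold higher (Ccl3, Cxcl10, Ccl12, Il1a, Tnfsf9, Ccl5 and Tnf), where 3.09% of all genes were, and 0 lower, where 4.04% of all genes were. The interval lay above 0 for 10 of them, against 4.9% of all genes. The list was drawn up with earlier results of these data known, so its direction is no independent evidence. Ccl2, a monocyte attractant, stood at 767 CPM in Ccl4-rich cells and 599 CPM in the others (log2 0.36, 0.20 to 0.52), and the neutrophil attractant Cxcl2 at 622 CPM against 430 CPM (log2 0.53, 0.35 to 0.71). Ccl5, with 31 UMIs in Ccl4-rich cells and 36 in the others, and Ccl7, with 24 and 30, had intervals that included 0 (−0.05 to 1.42 and −0.26 to 1.40). Il1b, the other main interleukin-1 cytokine, stood at 153 CPM against 140.5 CPM (log2 0.12, −0.23 to 0.46). Its 10 richest cells held 41.4% of its UMIs, and its ratio turned on the comparison cells, being 0.96 (0.55 to 1.37) against others with Apoe below 1% and 1.32 (0.73 to 1.94) against cells with no Ccl4 UMI and Apoe below 1%. Ccl6 (log2 0.28, 0.01 to 0.54) and Ccl9 (0.06, −0.18 to 0.30), which resting microglia also make, differed little.

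Of 11 measured subunits and inhibitors of NF-kappaB, 5 had an interval above 0, where 4.9% of all genes had. None was past 1.5-fold, where 3.09% of all genes were higher and 4.04% lower. Their median log2 ratio was 0.34. The largest ratios were those of inhibitors and modulators, with Tnfaip3, an enzyme that edits ubiquitin chains to end signalling, at 0.58 (0.15 to 1.00) and the nuclear IkappaB proteins Nfkbid and Nfkbiz at 0.57 (0.31 to 0.83) and 0.52 (0.29 to 0.75). Nfkbia, which holds NF-kappaB in the cytoplasm, stood at 2736 CPM in Ccl4-rich cells and 2183 CPM in the others (log2 0.33, 0.24 to 0.41). The subunit Rel was at 0.37 (0.08 to 0.66) and Rela at −0.05 (−0.70 to 0.56). Other NF-kappaB targets had a median of 0.28 over 14 measured genes, with 2 at least 1.5-fold higher, Cd83 and Ccrl2, and 0 lower. The shares over all genes were the same 3.09% and 4.04%. The adhesion molecule Icam1 (log2 0.42), the actin regulator Marcksl1 (0.44) and the kinase substrate Plek (0.52) had intervals above 0, and Sod2 (−0.08) and Ier3 (0.07) did not. Reads of the near-identical copies Bcl2a1a, Bcl2a1b and Bcl2a1d (0.13, 0.21 and 0.32) may have been split between them.

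Immediate early genes, which are transcribed first after a stimulus, differed less than the chemokines. The median of 19 measured transcription factors was 0.18, with 0 past 1.5-fold higher and 1, Id3, lower. Over all genes 3.09% were higher and 4.04% lower, which also applies to the counts of the next 2 lists. Fos stood at 2070 CPM in Ccl4-rich cells and 1882 CPM in the others (log2 0.14, 0.04 to 0.23), Jun at 2104 against 1759 CPM (0.26, 0.17 to 0.35), Atf3 at 1100.3 against 875 CPM (0.33, 0.20 to 0.46) and Egr1 at 708 against 711 CPM. The nuclear receptor Nr4a1 was at 0.50 (0.19 to 0.81). Id3, an inhibitor of helix-loop-helix factors, had 8 UMIs in Ccl4-rich cells and 55 in the others (log2 −1.88, −3.16 to −0.80). Its 10 richest cells held 39.7% of its UMIs, and without them the log2 ratio was −1.04. Feedback and mRNA decay genes of the same response had a median of 0.12 over 23 measured genes, with 1 at least 1.5-fold higher (Rgs1) and 0 lower. There Btg2 and Socs3 were at 0.32 and 0.33, Rhob at 0.47 and Gadd45a at 0.42, and Zfp36, which speeds the decay of cytokine mRNA, at 0.02 (−0.17 to 0.21). Heat shock chaperones had a median of 0.13 over 11, with 1 at least 1.5-fold higher (Hsph1, log2 0.78, or 0.18 without its 10 richest cells) and 0 lower. Hspa1a stood at 2514 CPM against 1997 CPM (log2 0.33, 0.25 to 0.42), and Bag3 at 0.26 (−0.28 to 0.79). Both libraries went through the same digestion at 37 °C, so transcripts present in the cord and those made during digestion cannot be told apart.

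**Figure D3:**
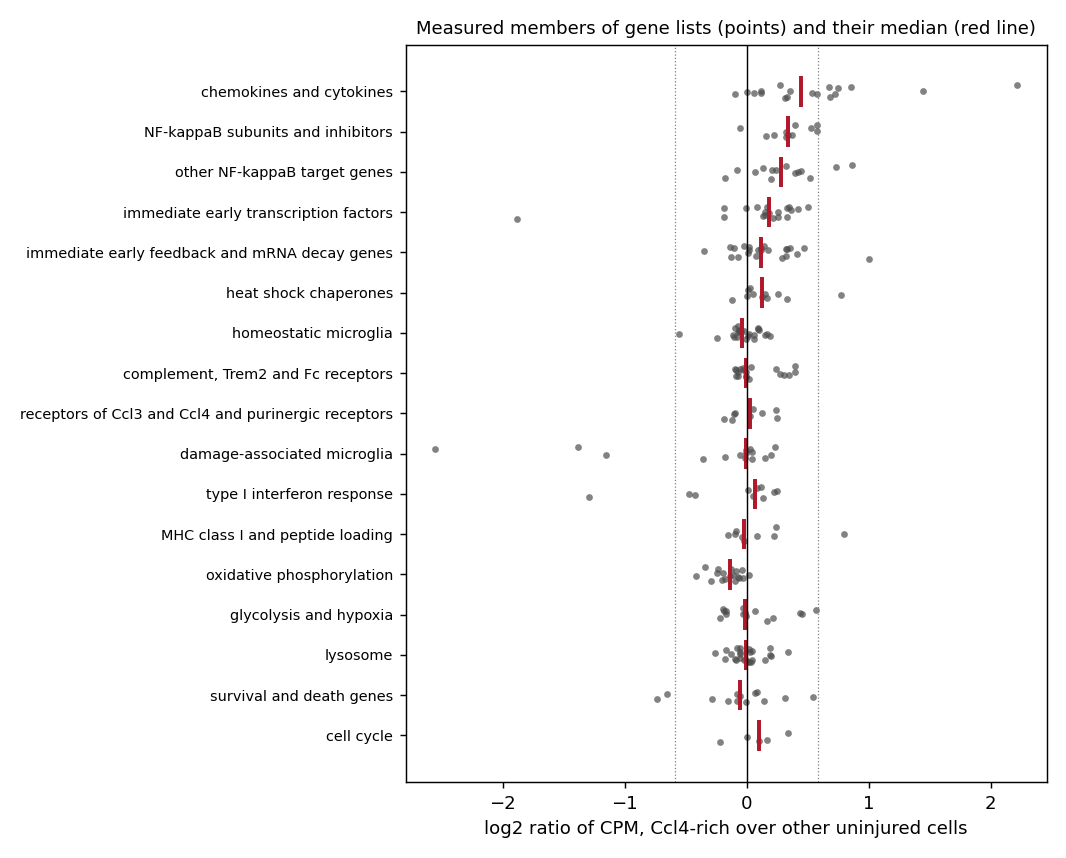
Each point is 1 measured gene, placed by its log2 ratio of CPM (Ccl4-rich over other uninjured cells), with a row for each gene list, a red line at the list's median and dotted lines at 1.5-fold. Chemokines and cytokines extend furthest right, with a median of 0.45, and homeostatic microglia cluster at 0 with a median of −0.03. The MHC class II list, whose median of −1.68 rested on few cells, and the sex-linked list are not drawn.

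To see whether levels differed in a step or by degrees, the 642 uninjured cells with Apoe below 1% were split into 6 bins of the Ccl4 share, of 192 cells at 0, 141 above 0 to 0.1%, 78 from 0.1 to 0.2%, 87 from 0.2 to 0.4%, 75 from 0.4 to 0.8% and 69 at 0.8% or more. The last 3 bins are the Ccl4-rich cells. Ccl3 stood at 490 and 438 CPM in the lowest bins and 661 CPM in the third, then at 1243, 2427 and 6033 CPM in the Ccl4-rich bins. Cd83 followed with 536, 539, 805, 833, 1218 and 1682 CPM, and Ccl12 with 340, 319, 413, 467, 761 and 868 CPM. In these genes the level climbed with the Ccl4 share inside the Ccl4-rich cells as well. Across the threshold Ccl3 rose from 661 to 1243 CPM, a smaller rise than those between the Ccl4-rich bins. The intervals of Cd83 and of Ccl12 overlapped across the threshold, and Cd83 rose from 539 to 805 CPM already below it. Between the top bins the intervals of Ccl12 overlapped as well.

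Il1a (310, 294, 470, 546, 557 and 617 CPM), Tnf (324, 305, 478, 524, 570 and 681 CPM) and Junb (4873, 4333, 6293, 6168, 6912 and 6828 CPM) differed less between the Ccl4-rich bins than Cd83. Each stood higher already in the bin just below the threshold than in the 2 lowest bins, as Cd83 did. Il1a and Tnf also climbed to the top bin, with intervals that overlapped between neighbouring Ccl4-rich bins. Gadd45g had 1283, 975, 1157, 898, 735 and 859 CPM, lowest in the Ccl4-rich bins. P2ry12 lay between 3171 and 3740 CPM in all 6 bins, and Egr1 between 612 and 879 CPM. The median UMI count of the bins ran from 2552 at 0 Ccl4 to 3374 in the top bin, and its part in these values was not tested.

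**Figure D4:**
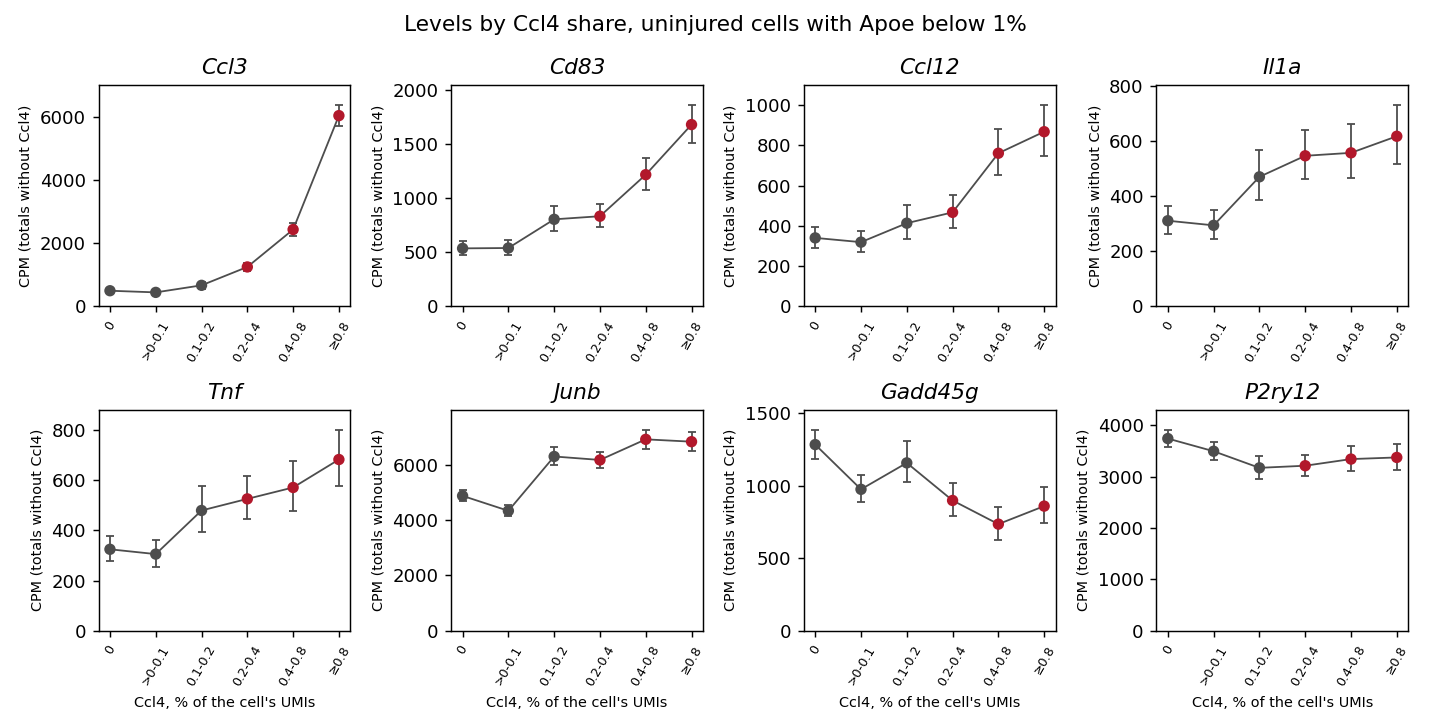
Level in CPM of 8 genes in 6 bins of the Ccl4 share, for uninjured cells with Apoe below 1%; red points are the 3 bins of Ccl4-rich cells, grey points the other cells, and bars are 95% Poisson counting intervals. Ccl3, Cd83 and Ccl12 keep climbing to the top bin. Cd83, Il1a, Tnf and Junb are higher from 0.1% onward, and Il1a, Tnf and Junb differ less than Cd83 between the red bins. Gadd45g is lower in the red bins and P2ry12 is nearly level.

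Several cytokines at once were seen in a larger share of the Ccl4-rich cells. Of the 8 genes Ccl3, Ccl2, Ccl12, Tnf, Il1a, Il1b, Cxcl2 and Cxcl10, the thinned Ccl4-rich cells showed a median of 3 and the others a median of 2. None of the 8 was seen in 7 of 207 Ccl4-rich cells (3.38%, 1.37 to 6.84) and in 59 of 397 others (14.9%, 11.5 to 18.7). At least 4 were seen in 76 Ccl4-rich cells (36.7%, 30.1 to 43.7) and in 69 others (17.4%, 13.8 to 21.5). Ccl3 is part of this count and is the gene most like Ccl4. Cxcl10, Ccl12, Il1a and Tnf, also counted, were likewise among the genes ranked highest in these same cells. A higher count in Ccl4-rich cells thus follows in part from the single-gene differences given above. Whether the genes were seen together more often than those differences alone would give was not tested.

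By likeness to Ccl4 from cell to cell (Pearson's r of log-scaled shares over the 695 cells of 1 library, which share depth and free RNA), the first 6 of 3282 genes were Ccl3 (0.53), Cd83 (0.31), Junb (0.29), Marcksl1 (0.23), Tgif1 (0.22) and Il1a (0.21). The median over all genes was 0.014. Within the 231 Ccl4-rich cells alone the same 6 genes had r of 0.46, 0.20, 0.10, 0.08, 0.06 and 0.06. These cells were cut on Ccl4 itself, which narrows its range and lowers r by construction, so the 2 sets of values are not compared. Cd83 and Junb had r of 0.43 with each other there, which for the same reason is not set against their r with Ccl4.

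The lowest genes of the Ccl4-rich cells were of 2 kinds. Cd74, the invariant chain of MHC class II, stood at 360 CPM in Ccl4-rich cells and 1159 CPM in the others (log2 −1.68, −1.88 to −1.50), yet it was seen in 42.4% of Ccl4-rich cells and 28.2% of the others. Its 10 richest cells, 1 of them Ccl4-rich, held 72.9% of its UMIs, and without them its log2 ratio was 0.70. Against cells with no Ccl4 UMI and Apoe below 1% it was 1.26 (0.89 to 1.65). The lysozyme gene Lyz2 (596 CPM against 1327 CPM, log2 −1.16) and the interferon-induced membrane protein gene Ifitm3 (42.6 CPM against 104 CPM, log2 −1.29) likewise came to −0.41 and −0.21 without their 10 richest cells. Against other cells with Apoe below 1% the log2 ratios of Cd74, Lyz2 and Ifitm3 were −0.83, −0.37 and −0.83, and without the 14 barcodes that carried markers of other cell types they were 0.72, −0.48 and −0.41.

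The second kind was low everywhere. Eif4e3 and Mrpl46, a cap-binding translation factor and a mitochondrial ribosomal protein, had 7 UMIs each in Ccl4-rich cells and 56 and 54 in the others. Mrpl46 had a log2 ratio of −2.04 (−3.43 to −0.90), or −3.00 without its 10 richest cells, and the interval of Eif4e3 was −3.48 to −0.96. Stk19, Rit1, Gbp7, Txlna and Actr10 had 10 to 22 UMIs in Ccl4-rich cells and 53 to 79 in the others. Tspo, a protein of the outer mitochondrial membrane used as an imaging marker of activated microglia, was better covered and stood at 133 CPM in Ccl4-rich cells and 207 CPM in the others (log2 −0.64, −0.98 to −0.30), and Mlf2 at 105 CPM against 162 CPM (−0.63, −1.03 to −0.25).

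Genes of microglial identity differed little. All 24 homeostatic genes were measured, and their median log2 ratio was −0.03. In either direction 0 were past 1.5-fold, where 3.09% of all genes were higher and 4.04% lower. The interval lay above 0 for 2 and below 0 for 5, against 4.9% and 3.63% of all genes. Against other cells with Apoe below 1%, it lay above 0 for 0 and below 0 for 10. There 0 were at least 1.5-fold higher and 1 lower, where 3.52% and 4.02% of all genes were. P2ry12, the ADP receptor that guides processes to injury, ran from 1 to 36 UMIs with a median of 9 in Ccl4-rich cells and from 0 to 38 with a median of 9 in the others, at 3301 CPM against 3306 CPM. Cx3cr1 was at 0.10 (−0.06 to 0.27), Tmem119 at −0.11 (−0.20 to −0.02), the growth factor receptor Csf1r at −0.10 (−0.19 to −0.003) and the protease inhibitor Cst3, the most abundant of them at 72344 CPM against 75899 CPM, at −0.07. Sall1, a transcription factor of microglial identity, was the furthest at −0.55 (−1.07 to −0.06), with 47 and 129 UMIs. Mef2c was at 0.19 (0.03 to 0.35) and Adgrg1 at −0.24 (−0.52 to 0.03). Receptors for the 2 chemokines and for nucleotides had a median of 0.03 over 9 measured genes with 0 past 1.5-fold. Against the other uninjured cells 3.09% of all genes were higher and 4.04% lower. In the receptor list Entpd1 was at −0.19 (−0.56 to 0.17), P2rx7 at 0.25 (−0.25 to 0.74) and Il10ra at 0.24 (−0.11 to 0.59), while Ccr1 had 9 UMIs in Ccl4-rich cells and 20 in the others.

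Other programmes of activated microglia were near the median of all genes. Complement, Trem2 and Fc receptor genes had a median of −0.01 over 19 with 0 past 1.5-fold. In that list the pattern receptor Tlr2 was at 0.40 (0.20 to 0.59), Fcgr4 at 0.40 (−0.42 to 1.20) and C5ar2 at 0.35 (−0.23 to 0.92). Damage-associated genes had a median of −0.01 over 15, with 0 higher, where 3.09% of all genes were, and 3 lower, Lgals3, Cst7 and Lyz2, where 4.04% of all genes were. Lgals3 and Cst7 had 5 and 16 UMIs in Ccl4-rich cells against 55 and 78 in the others (log2 −2.56, −4.24 to −1.25, and −1.38, −2.26 to −0.59), and without the 10 richest cells of each their log2 ratios were −0.15 and 0.03. Spp1, the secreted osteopontin gene, stood at 86.6 CPM against 86.8 CPM, but its 10 richest cells held 79.6% of its UMIs. Against cells with no Ccl4 UMI and Apoe below 1% its log2 ratio was 2.45 (1.39 to 3.73). Interferon response genes had a median of 0.07 over 10 with 0 higher and 1 lower (Ifitm3), Ifi27l2a being at −0.42 (−0.93 to 0.08), or 0.39 without its 10 richest cells. MHC class I and peptide loading genes had a median of −0.02 over 9 with 1 higher (Tap1, log2 0.80, −0.01 to 1.61) and 0 lower, Tap2 being at 0.24 and H2-K1 at 0.22 (0.05 to 0.40). The counts of the complement, interferon and MHC class I lists are to be read against the same 3.09% and 4.04% of all genes.

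The list of MHC class II with costimulation genes had 7 measured members and a median of −1.68. None was higher and 4 were lower, where 3.09% and 4.04% of all genes were. However, 10 cells held 94.4% of the H2-Aa, 93.1% of the H2-Eb1 and 82.0% of the H2-Ab1 UMIs. H2-Aa had 4 UMIs in Ccl4-rich cells and 210 in the others. Against cells with no Ccl4 UMI and Apoe below 1% the median of this list was −0.02 over 4 genes.

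Metabolic and housekeeping groups were close to level. Oxidative phosphorylation genes had a median of −0.13 over 18, 17 of them below 0 and 0 past 1.5-fold, with Atp5j2 at −0.34 (−0.63 to −0.06), Ndufa4 at −0.29 (−0.57 to −0.01) and Ndufs6 at −0.41 (−0.93 to 0.09). Glycolysis and hypoxia genes had a median of −0.01 over 15 with 0 past 1.5-fold, Pfkl being at 0.57 (0.08 to 1.06), Slc16a3 at 0.46 and Pfkfb3 at 0.44, the last pair with intervals that included 0. Lysosomal genes had a median of −0.01 over 25 with 0 past 1.5-fold, and Atp6v0e (0.34, 0.10 to 0.57), Lamp1 (−0.26) and Npc1 (0.20) had the largest ratios. Survival and death genes had a median of −0.06 over 13 with 0 higher and 2 lower, Bid (−0.73, −1.40 to −0.10) and Bak1 (−0.66, −1.49 to 0.12), and Bcl2l11 was at 0.54 (−0.10 to 1.18). Over all genes 3.09% were higher and 4.04% lower. Of 16 cell cycle genes 5 were measured, with a median of 0.11 and 0 past 1.5-fold, Pcna being at 0.34, Tubb5 at −0.22 and Hmgb2 at 0.17. Ribosomal protein genes took 11.6% of UMIs in Ccl4-rich cells and 11.7% in the others, and their median log2 ratio was 0.01 over 80 genes.

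Sex-linked transcripts did not separate the 2 sets. Y-linked UMIs without Xist were found in 76 of 231 Ccl4-rich cells and 159 of 464 others, and Xist UMIs alone in 3 and 3. Eif2s3y was at −0.41 (−0.93 to 0.10) and Ddx3y at 0.24 (−0.34 to 0.81), a list median of −0.08 over 2 measured genes with 0 past 1.5-fold. Over all genes 3.09% were higher and 4.04% lower. The libraries themselves differed in Xist. It was seen in 1.45% of thinned Ccl4-rich cells and 0.756% of the other uninjured cells. In the injured library the shares were 26.4% of thinned cells that met the same rule and 24.0% of the rest. Sex and injury therefore cannot be told apart between the libraries.

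The choice of comparison cells mattered for the size of the chemokine difference. Against the 411 other cells with Apoe below 1%, Ccl3 had a log2 ratio of 2.60 (2.47 to 2.73) and the chemokine and cytokine list a median of 0.75, with 10 of 17 measured members at least 1.5-fold higher, where 3.52% of all genes were. In that comparison 0 members were 1.5-fold lower, where 4.02% of all genes were. Against the 192 cells with no Ccl4 UMI and Apoe below 1% the median was 0.87, with 9 of 16 members higher, where 5.36% of all genes were, and 0 were lower, where 3.04% of all genes were. The 53 Apoe-rich cells, which that limit removes from the comparison, included chemokine-rich cells of their own.

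The same rule was then applied to the injured library, which had no part in choosing the uninjured cells. It picked 130 of 577 injured cells (22.5%), or 130 of the 248 with Apoe below 1% (52.4%, 46.0 to 58.8), against 36.0% (32.3 to 39.8) of uninjured cells with Apoe below 1%. All other injured cells were the first comparison, as in the uninjured library, but they were richer in Ccl4 than the other uninjured cells. The upper quartile of their Ccl4 share was 0.397%, above the 0.2% threshold, against 0.093% in the other uninjured cells. Those at 0.2% or more were outside the rule by Apoe alone. What this did to the ratios was not tested. Ccl3 stood at 3617 CPM in the injured cells that met the rule and 2318 CPM in the rest (log2 0.64, 0.57 to 0.72). Cxcl10 was at 0.04 (−0.20 to 0.27), Ccl12 at 1.09 (0.98 to 1.20), Il1a at 0.98 (0.84 to 1.13), Tnf at 0.56 (0.38 to 0.73) and Cd83 at 0.34 (0.21 to 0.46). All 16 genes highest in uninjured Ccl4-rich cells had a ratio above 0 there, and 9 were at least 1.5-fold higher, where 13.5% of all genes were and the median over all genes was 0.11. Of the 12 lowest genes 7 had a ratio below 0 and 1 was at least 1.5-fold lower, where 7.89% of all genes were.

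Most injured cells outside the rule had Apoe at 1% or more, so the comparison was repeated within Apoe below 1%, a choice made after seeing the data. Set against the other 118 injured cells with Apoe below 1%, Ccl3 stood at 3617 CPM in the cells that met the rule and 592 CPM in the rest (log2 2.61, 2.43 to 2.80). Of the 16 genes highest in uninjured Ccl4-rich cells, 14 were measured in this injured comparison, all 14 with a ratio above 0 and 12 at least 1.5-fold higher, where 11.2% of all genes were. Ccl12 was at 2.27 (2.04 to 2.51), Cxcl10 at 2.46 (1.89 to 3.06), Rcan1 at 2.15 (1.40 to 2.96), Cd83 at 0.79 (0.60 to 0.99), Il1a at 0.99 (0.77 to 1.21) and Tnf at 0.99 (0.71 to 1.27). Of the 12 lowest genes 5 were measured there and 2 had a ratio below 0, with 0 at least 1.5-fold lower where 6.53% of all genes were.

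For chemokines and cytokines the order of the 2 libraries turned with the comparison cells. Against all other cells of each library their median was 0.29 in injured cells and 0.45 in uninjured cells. In injured cells 7 of 22 were at least 1.5-fold higher and 2 lower, where 13.5% and 7.89% of all genes were. With Apoe below 1% on both sides it was 1.13 in injured cells, with 12 of 18 higher, and 0.75 in uninjured cells, with 10 of 17 higher. In that comparison the share of all genes at least 1.5-fold higher was 11.2% in the injured library and 3.52% in the uninjured one. The immediate early transcription factors had a median of 0.75 in injured cells, with 11 of 15 higher, and 0.21 in uninjured cells, with 1 of 19 higher, to be read against the same 11.2% and 3.52%. Against all other cells their medians were 0.57 in injured and 0.18 in uninjured cells. Homeostatic genes had medians of −0.08 in injured and −0.11 in uninjured cells with Apoe below 1% on both sides, and of 0.42 and −0.03 against all other cells. With Apoe below 1% on both sides, Ccl2 was at 1.29 (1.12 to 1.46) in injured and 0.41 (0.25 to 0.58) in uninjured cells, and Gadd45g at −0.26 (−0.59 to 0.06) in injured and −0.45 (−0.59 to −0.31) in uninjured cells. With 1 library each, the difference between the libraries was not tested. In the comparison against all other cells, the other injured cells were richer in Ccl4 than the other uninjured cells, as given above. The libraries also differed in the share of cells with Xist, given above, and this cannot be told apart from injury. The injured cells had more UMIs, with a median of 3487.5 in those that met the rule against 3187 in the uninjured Ccl4-rich cells, and its part in these values was not tested.

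**Figure D5:**
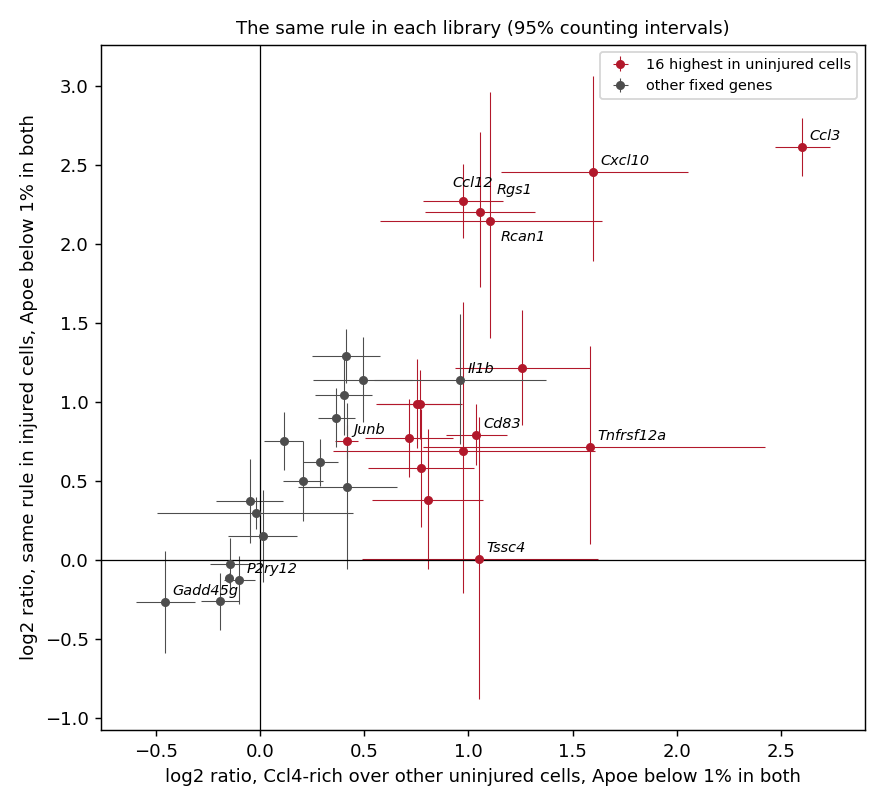
Log2 ratio of CPM between cells that meet the Ccl4 rule and the other cells with Apoe below 1%, in the injured library (vertical) and the uninjured library (horizontal), with 95% counting intervals. Red points are the 16 genes highest in uninjured Ccl4-rich cells, of which Tcf7l2 and Tssc4 had under 50 UMIs in the injured comparison, and grey points are other named genes. Ccl3 lies at 2.61 in the injured and 2.60 in the uninjured library, Ccl12, Rgs1 and Rcan1 lie higher in the injured library, and P2ry12 lies near 0 in both.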

How the data were processed

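The deposited values were UMI counts, whole numbers for each gene in each barcode, made with the 10x Chromium 3′ version 2 chemistry and 10 PCR cycles per the labels' protocols. The tools named in the submitters' processing notes are STAR, Cell Ranger 2.0.1 and Seurat 2.1.0, and the build is GRCm38.p5. As for the barcode filter, annotation and strand setting, they were not given in the sources used here. Per the labels 2500 cells were sorted for each library, with 580 injured and 705 uninjured cells recovered, the same as the numbers of barcodes deposited. A barcode was kept if it had 200 genes or more and no more than 10% mitochondrial UMIs, which removed 3 injured and 10 uninjured barcodes. No doublet caller was run. The kept cells held 3095511 injured and 2093084 uninjured UMIs.

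UMIs were summed over cells and scaled to CPM with Ccl4 left out of the totals. Genes entered with 50 or more UMIs in both sets together, and ratios have an exact interval from the share of the gene's UMIs. Cells were thinned to 1500 UMIs without replacement for shares of cells. Log-scaled shares were the natural log of 1 plus UMIs per 10000. Numerical work used Python 3.11.15, numpy 2.4.6, scipy 1.17.1 and pandas 2.3.3. Scaling alternatives took TMM factors from edgeR 4.0.16 and size factors from DESeq2 1.42.0 in R 4.3.3. Ratios were checked on simulated Poisson counts, which follow the counting model of the intervals. The simulation had no spread between cells, so it says nothing about genes whose UMIs lay in few cells. Coordinates are from GENCODE M21 (GRCm38), matched by gene ID for all named genes.

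The cells, 19 gene lists and 17 marker lists were chosen with earlier results of these data known. The named genes are the 16 highest and 12 lowest by the interval bound nearest 0 among genes in at least 10% of cells of the higher set, up to 3 per list by size of ratio, the 6 most like Ccl4, and a fixed set. Some genes that fall under this rule are not reported. Left out of the ranking were Ccl4, Apoe, genes of mitochondria, ribosomal proteins and haemoglobin, and unnamed Rik or Gm models. Alternatives that leave out the 10 richest cells of a gene, and the injured comparison within Apoe below 1%, were added after seeing the data.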

Additional observations from a re-analysis of the deposited data

Results flagged for a closer look

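Of 91 named genes compared, 7 had counting intervals on opposite sides of 0 when the same rule was applied to each library and the cells were set against all other cells of that library. The difference between the libraries was not tested, since each is 1 library. The comparison cells also differed in Ccl4. The upper quartile of their Ccl4 share was 0.397% in the other injured cells and 0.093% in the other uninjured cells, and its part in these values was not tested. Cd74 had a log2 ratio of 0.66 in injured and −1.68 in uninjured cells, but 10 cells held 72.9% of its uninjured UMIs. The uninjured value was 0.70 without them, 0.72 without barcodes of other cell types and 1.26 against cells with 0 Ccl4 UMIs and Apoe below 1%, the sign of the injured value. Gbp7, an interferon-induced GTPase, had 1.02 in injured and −1.14 in uninjured cells. Pfkl, a phosphofructokinase of glycolysis, had −0.51 in injured and 0.57 in uninjured cells. Gadd45g had 0.56 in injured and −0.35 in uninjured cells, Tmem119 0.35 and −0.11, Csf1r 0.40 and −0.10, and Cst3 0.81 and −0.07, in the same order. Against injured cells with Apoe below 1%, which removes most injured cells from the comparison, the injured values of Gadd45g, Tmem119, Csf1r and Cst3 were −0.26, −0.26, −0.02 and −0.11, all below 0 as in uninjured cells. That of Cd74 was 1.00 (0.68 to 1.33), and those of Gbp7 and Pfkl were 0.73 and −0.02 with intervals that included 0.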

How the results depend on the processing

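No paired analysis was possible because each group has 1 library. Across 92 named genes 1772 of 1928 alternative values kept direction and stayed within the counting interval, 146 moved further and 10 reversed, and of 379 medians over 19 gene lists 347 kept and 32 moved. The count of genes at least 1.5-fold higher, 137, was 219 as a mean over cells, 1088 with no gene minimum, 526 with a minimum of 20 UMIs, 12 with a minimum of 200 UMIs and 16 at 2-fold. The count lower, 179, was 118 with thinned cells, 1486 with no gene minimum, 605 with 20 UMIs, 9 with 200 UMIs, 289 with a Ccl4 share of at least 0.4%, 92 against cells with 0 Ccl4 UMIs, 117 in cells with Y-linked UMIs alone and 39 at 2-fold. A lower gene minimum tests more genes of few counts, and a higher one fewer. The median of chemokines and cytokines, 0.45, was 0.63 as a mean over cells, 0.75 with no limit on Apoe, 0.75 against others with Apoe below 1% and 0.87 against cells with 0 Ccl4 UMIs. The homeostatic median, −0.03, was −0.14 with no limit on Apoe. The log2 ratio of Ccl3, 2.22, ranged from 1.85 without its 10 richest cells to 2.64 against cells with 0 Ccl4 UMIs. It was 2.35 in thinned cells, 1.92 and 2.47 with Ccl4 shares of at least 0.1% and 0.4%, 2.06 with at least 5 Ccl4 UMIs, 2.51 with no limit on Apoe, 2.60 against others with Apoe below 1% and 1.94 without the 10 cells richest in Ccl4. Reversals were Rcan1 at −0.071, Cd74 at 0.70, Cst7 at 0.032 and H2-Eb1 at 0.28 without their 10 richest cells, Cd74 at 0.72 without barcodes of other cell types, Cst7 at 0.059 with no limit on Apoe, and, against cells with 0 Ccl4 UMIs, Cd74 at 1.26, Lgals3 at 1.80 (−1.36 to 7.36), H2-Eb1 at 0.48 (−1.75 to 3.10) and H2-Ab1 at 0.48 (−0.54 to 1.56). Where not given by the setting itself, the cause was not tested. TMM and DESeq2 factors shifted every log2 ratio by 0.0088 and 0.0079 and turned or moved no named gene. Depth limits the genes under about 50 UMIs and every single-cell share, and the lack of a second uninjured library limits all values.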
